A study of Mus musculus with 55 samples.

Results

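The regions described here are sites of histone H3 lysine 27 acetylation (H3K27ac) that were found in both replicates of Wnt-stimulated epiblast stem cells (EpiSCs) and had no H3K27ac region in embryonic day 9.5 (E9.5) tissue. They were chosen by the acetylation lists alone. Merging the EpiSC regions that met the other replicate over 1 bp or more gave 20255 sites. Of these, 19251 sites were narrower than 3000 bp, and 1406 of the narrow sites overlapped none of the 4 E9.5 lists. The 1406 sites were 6.94% of all EpiSC sites and 7.30% of the narrow ones. The other 17845 narrow sites, which met at least 1 E9.5 list, are the sites they were compared with and are called shared sites below.

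H3K27ac marks active promoters and enhancers and is written mainly by the related acetyltransferases CBP and p300, which transcription factors bring to DNA. ATAC-seq maps open chromatin, the stretches that a transposase can reach, and an active element usually carries both an open core and acetylated flanking nucleosomes. Cdx2 and T (Brachyury) are transcription factors of the primitive streak and of axial progenitors, the cells from which the trunk and tail elongate. Cdx2 is a homeodomain protein of the caudal family, and T is a T-box protein that acts in early mesoderm and that Wnt signalling turns on.

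The study measured chromatin and RNA around Cdx and T in mouse EpiSCs and embryos, and 21 of its 55 samples are region lists used here. EpiSCs are pluripotent cell lines, here derived before the primitive streak forms, and were grown with Fgf-basic, Activin A and IWP2, an inhibitor of Wnt secretion. WT EpiSCs were stimulated for 24h by taking away IWP2 and adding 3 µM Chiron (CHIR99021, a GSK3 inhibitor that activates Wnt signalling) and 120 ng/ml Fgf8, and were the source of the lists of H3K27ac (2 replicates), Cdx2 (2 replicates), T (2 replicates) and CBP-P300 (1 sample). E9.5 H3K27ac came from the anterior part and from the tailbud of untreated WT embryos, with 2 replicates each. Both parts are mixed tissues, and EpiSCs are an earlier, cultured cell type, so the 2 sources differ in more than stage. Crosslinking lasted 10 min for all H3K27ac samples and 15 min for the Cdx2, T and CBP-P300 samples. Open chromatin was measured in CdxKO EpiSCs, with 1 library kept in IWP2 (before Chiron) and 1 after 48h of 3 µM Chiron without added Fgf8. It was therefore read in cells of another genotype, at another time and without the Fgf8 that the acetylated cells received, and the labels do not say which Cdx alleles these cells lack. The culture notes of the library in IWP2 also speak of genotyping Wnt3 null lines. That library is taken as CdxKO from its title, and the doubt touches each value given as before Chiron. The labels state that the antibody batch of the E9.5 replicate 1 samples also bound H3K9ac, and that the manuscript left these samples out. They count here as lists equal to the others, as the rule has it. Whether the replicates are separate cultures or embryos is not stated.

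The region lists hold positions without heights or read counts, so the depth behind a call is unknown, and the absence of a region means that no region was listed there. The E9.5 lists held between 28599 and 76071 regions, the EpiSC H3K27ac lists 27065 and 33764, the ATAC-seq lists 44850 and 46532, and the CBP-P300 list 13549. The Cdx2 lists held 1210 and 2545 regions, of which 1075 joined sites met both replicates. The T lists held 1246 and 1079 regions, which gave 767 joined sites. Shares below carry 95% Wilson intervals, and differences between shares carry 95% Newcombe intervals in percentage points. Both treat sites as independent and cover counting error over sites only. Neighbouring sites share their source, so no p-value is given.

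The sites without an E9.5 region were narrower than shared sites. Their widths ran from 323 to 2929 bp with a median of 832 bp (quartiles 593 and 1223 bp), and shared sites had a median of 1162 bp. Before the replicates were joined, regions without an E9.5 counterpart met the other EpiSC replicate less often, which describes the lists that the rule drew on. Among replicate 1 regions below 3000 bp that met no E9.5 list, 1591 of 4425 (36.0%) met a region of replicate 2. The share was 87.7% of 21920 for replicate 1 regions that met an E9.5 list. For replicate 2 the same shares were 1527 of 5995 (25.5%) and 70.0% of 27149. The 1406 sites are the part that both replicates listed.

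Few sites lay close to the limits of the rule on overlap. A shared site lay inside E9.5 regions over a median of 100% of its length, and only 12 shared sites had under 100 bp in them. Of the 1406 sites, 23 lay within 100 bp of an E9.5 region and 1 touched one. The 3 widest members were chr12:17422237-17425165 (2929 bp), chr16:13979904-13982797 (2894 bp) and chr8:76849693-76852489 (2797 bp). The first carried CBP-P300 and was not open, and the others were open at both times without CBP-P300. The 3 narrowest sites at or above the limit, whether or not they met E9.5 lists, of 3001, 3001 and 3002 bp, lay on chromosomes 11, X and 15. All 3 were in the 4 E9.5 lists, carried CBP-P300 and were open at both times. Positions are in the mouse build mm9, counted from 1.

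Most of the sites had no open chromatin at either time. An ATAC-seq region before Chiron overlapped 345 of the 1406 sites (24.5%, 22.4 to 26.9), where all narrow EpiSC sites had 83.2%. At 48h it was 353 sites (25.1%, 22.9 to 27.4), against 85.6% of all narrow sites. Shared sites were open at 87.9% and 90.4%, so the sites without an E9.5 region were lower both before Chiron (difference -63.3, -65.5 to -61.0) and at 48h (difference -65.3, -67.5 to -62.9). Neither ATAC-seq list had a region at 957 sites (68.1%, 65.6 to 70.5), against 12.6% of all narrow sites and 8.18% of shared ones.

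The gap in openness was present in each class of width. Within sites below 1000 bp, 25.2% of 901 sites without an E9.5 region and 80.5% of 7226 shared sites were open before Chiron. From 1000 to under 2000 bp the shares were 23.6% of 449 and 91.7% of 7725. From 2000 to under 3000 bp they were 21.4% of 56 and 96.1% of 2894. Before Chiron, shared sites were thus open more often in each wider class, and the sites without an E9.5 region were not. At 48h the 3 classes gave 23.5%, 27.4% and 32.1% for the sites without an E9.5 region.

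**Figure D1:**
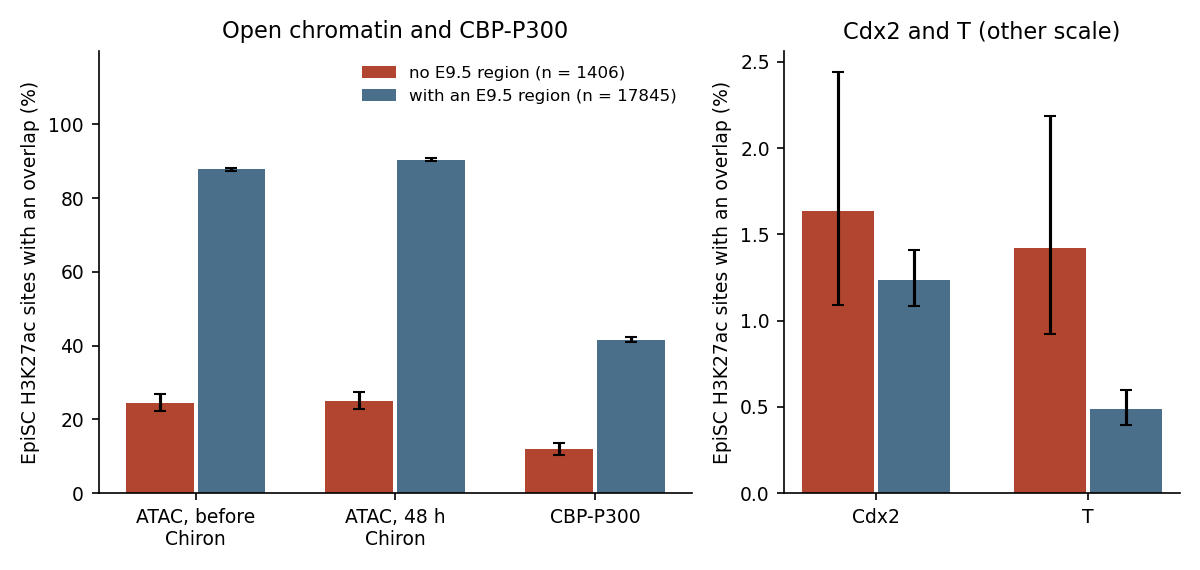
Share of EpiSC H3K27ac sites (percent, vertical axis) that overlap an ATAC-seq region before Chiron or at 48h or a CBP-P300 region (left), or a Cdx2 or T site (right, on another scale). Red bars are the 1406 sites without an E9.5 region, blue bars the 17845 shared sites, and error bars are 95% Wilson intervals. The red bars stand far below the blue ones in the left panel (24.5% against 87.9% before Chiron), and at T the red bar stands above the blue one (1.42% against 0.488%).

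The sites that were open were mostly open at both times, and smaller groups were open at 1 time only. Of the 1406 sites, 249 (17.7%) were open at both times, against 81.4% of all narrow sites. Another 104 (7.40%, 6.14 to 8.88) were open at 48h only, against 4.21% of all narrow sites and 3.96% of shared ones (difference 3.43, 2.15 to 4.95). That excess rests on the many shared sites in all 4 E9.5 lists, at 1.85%. Sites in 1, 2 and 3 E9.5 lists had 13.2%, 12.9% and 12.0%. Against sites in 1 list the share was lower (difference -5.78, -8.62 to -3.14). A further 96 (6.83%, 5.62 to 8.27) were open before Chiron only, against 1.8% of all narrow sites and 1.41% of shared ones (difference 5.42, 4.20 to 6.87). Here the difference from sites in 1 list had an interval that includes 0 (1.25, -0.937 to 3.26). Below 1000 bp the share open at 48h only was close to that of shared sites (difference 0.319, -1.15 to 2.12). The excess over shared sites lay in wider sites, with 14.3% of 56 sites against 1.94% from 2000 to under 3000 bp.

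The changing sites without an E9.5 region were spread almost evenly between the directions. Of the 200 sites found in 1 ATAC-seq list only, 104 (52.0%, 45.1 to 58.8) were open at 48h, and the rest before Chiron. Among shared sites of this kind it was 707 of 958 (73.8%), a difference of -21.8 points (-29.2 to -14.4). Over the whole genome, 54.8% of the 21651 ATAC-seq regions found in 1 list came from 48h. The sites without an E9.5 region were thus near the level of the ATAC-seq lists themselves, and the shared sites were above it. With 1 library per time, a change between times has no replicate check.

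Where open chromatin was present, it was narrow and, relative to the width of the site, less often central than at shared sites. ATAC-seq regions at the sites had a median width of 457 bp before Chiron and 471 bp at 48h, against 1045 and 1112 bp at shared sites. They covered a median of 35.8% and 31.8% of the site, against 64.8% and 69.0%. The midpoint of the ATAC-seq region lay in the central 50% of the site for 44.1% of 347 regions before Chiron and for 57.7% at shared sites (difference -13.6, -18.8 to -8.32). At 48h the shares were 41.8% of 359 and 57.0% (difference -15.2, -20.2 to -9.96). In bp the distance between the midpoints of region and site was similar in both groups. Its median was 232.5 bp against 241 bp at shared sites before Chiron, and 266 bp against 248.5 bp at 48h. In 74.5% of the sites open before Chiron and 69.7% of those open at 48h the midpoint of an open region lay inside the site at all, against 80.9% and 80.2% of the shared sites. The other open sites were touched by an open region centred outside them.

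Closed sites mostly lay several kilobases from open chromatin. The 957 sites with no ATAC-seq region lay a median of 8841 bp from the nearest, with quartiles of 2620 and 21989 bp. The nearest of them lay 9 bp away.

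CBP-P300 was listed at 167 of the 1406 sites (11.9%, 10.3 to 13.7), against 39.5% of all narrow sites and 41.6% of shared ones (difference -29.8, -31.5 to -27.8). The share rose with width, from 8.32% below 1000 bp through 17.1% to 26.8% at 2000 to under 3000 bp, and stayed below that of shared sites in each class (22.5%, 47.0% and 75.2%). The 186 CBP-P300 regions at these sites were 1.37% of the CBP-P300 list, and 65.1% of that list lay in shared sites. Sites without CBP-P300 lay a median of 36654 bp from the nearest CBP-P300 region.

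The CBP-P300 regions lay mostly near the middle of the sites. The midpoint was in the central 50% of the site for 72.6% of the 186 regions and 76.0% at shared sites, a difference whose interval includes 0 (-3.46, -10.3 to 2.52). In 163 of the 167 sites (97.6%) a CBP-P300 midpoint lay inside the site, slightly fewer than the 99.4% of shared sites (difference -1.80, -5.41 to -0.329).

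Sites with CBP-P300 were mostly closed too, and at 48h slightly more of them were open, by a margin that is not secure. With CBP-P300, 47 of 167 sites (28.1%) were open before Chiron, and without it 298 of 1239 (24.1%), a difference of 4.09 points (-2.64 to 11.7). At 48h it was 53 (31.7%) against 24.2%, a difference of 7.52 points (0.497 to 15.3), whose interval comes close to 0. Among shared sites the shares at 48h were 94.9% with CBP-P300 and 87.2% without (difference 7.74, 6.92 to 8.55). The sites with CBP-P300 were wider, with a median of 1125 bp against 832 bp for all 1406. These comparisons were not split by width. No ATAC-seq region was listed at 103 of the 167 CBP-P300 sites (61.7%, 54.1 to 68.7), where shared sites with CBP-P300 had 4.37% (difference 57.3, 49.7 to 64.3). At the 53 sites with CBP-P300 and an ATAC-seq region at 48h, the 2 regions overlapped each other in 39 (73.6%), against 97.2% of 7054 shared sites.

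The 5 widest sites with CBP-P300 that were open at both times and carried neither Cdx2 nor T are given here. Each open or CBP-P300 region listed there was shorter than the acetylated site. Only 36 of the 167 sites with CBP-P300 (21.6%) were open at both times. The widest, chr8:34620727-34623114, spanned 2388 bp, held ATAC-seq regions of 552 bp before Chiron and 852 bp at 48h, and lay 1104 bp from an E9.5 region. At chr6:85024240-85026370 (2131 bp) the open region measured 496 bp and then 424 bp, and a CBP-P300 region of 273 bp was listed. At chr14:17032699-17034691 (1993 bp) the open region measured 849 bp and then 398 bp, and the nearest E9.5 region was 40477 bp away. The others were chr14:100342618-100344433 (1816 bp), with 3 CBP-P300 regions and only 94 bp to an E9.5 region, and chr7:125970893-125972577 (1685 bp). Whether these 5 lie in a gene was not determined, since an annotation of mm9 was not used here.

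Cdx2 was listed at 23 of the 1406 sites (1.64%, 1.09 to 2.44), against 1.27% of all narrow sites. The difference from shared sites, at 1.24%, had an interval that includes 0 (0.397 points, -0.173 to 1.22). Its sign was not the same in all width classes, with -0.207 points (-0.903 to 1.28) from 1000 to under 2000 bp and 4.08 points (0.528 to 13.3) from 2000 to under 3000 bp, the latter from 3 sites of 56. The 23 sites hold 21 Cdx2 sites, since 2 pairs of neighbours share 1 each. These pairs are chr5:89111981-89113374 with chr5:89113576-89114436, and chr9:94560765-94562252 with chr9:94562369-94563297, and were named after their values were seen. The 21 were 1.95% of all Cdx2 sites, and 18.6% lay in shared sites.

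By replicate, Cdx2 replicate 1 met 23 of the sites and replicate 2 met 32, and 37 met either. In 10 of the 23 sites the midpoint of the Cdx2 site lay inside the acetylated site, and in the others Cdx2 was centred beyond its edge. The same held for 117 of 221 shared sites (52.9%).

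Sites with Cdx2 more often carried CBP-P300 than the others. CBP-P300 was listed at 12 of the 23 (52.2%, 33.0 to 70.8) and at 155 of 1383 sites without Cdx2 (11.2%, 9.65 to 13.0). Both pairs of neighbours that share a Cdx2 site are among the 12. Shared sites with Cdx2 had 59.7% (difference -7.55, -27.8 to 12.2). In 2 of the 12 sites the CBP-P300 and Cdx2 regions themselves overlapped, against 69 of 132 shared sites. At the other 10 the listed regions did not overlap each other.

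Of the 23 sites with Cdx2, 7 were open at both times, 3 at 48h only, 13 at neither time and none before Chiron only. At 48h, 10 of 23 (43.5%) were open, against 24.8% of the sites without Cdx2 (difference 18.7, 0.680 to 38.5). The neighbours on chromosome 9 that share a Cdx2 site are both among the 10, each with an ATAC-seq region of 791 bp. The interval counts them as separate sites and comes close to 0, so the difference is not secure. Among shared sites the sign was the opposite, with 71.0% open at 48h with Cdx2 and 90.7% without (difference -19.6, -25.9 to -14.0). The 10 open sites held an ATAC-seq region that overlapped Cdx2 itself in 9 cases. Sites open at neither time were more frequent than among shared sites with Cdx2, at 56.5% against 27.1% (difference 29.4, 8.70 to 48.0). Openness was read in CdxKO cells and Cdx2 in WT cells.

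Of the 23, 2 sites carried Cdx2 and CBP-P300 and were open at 48h only. At chr11:32136085-32138730 (2646 bp), a Cdx2 site of 269 bp, 2 CBP-P300 regions and an ATAC-seq region of 265 bp at 48h were listed, and the nearest E9.5 region was 5009 bp away. At chr3:98744165-98745109 (945 bp), a Cdx2 site of 306 bp, a CBP-P300 region of 383 bp and an ATAC-seq region of 506 bp at 48h were listed, and an E9.5 region lay 270 bp away. Both lay nearer to E9.5 acetylation than the median of the 1406 sites, which was 7398 bp.

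T was listed at 20 of the 1406 sites (1.42%, 0.923 to 2.19), against 0.556% of all narrow sites and 0.488% of shared ones (difference 0.935, 0.422 to 1.70). The difference was above 0 below 1000 bp (0.723, 0.152 to 1.68) and from 1000 to under 2000 bp (1.51, 0.549 to 3.28). No site of 2000 to under 3000 bp without an E9.5 region had T, and the difference there was -0.449 points (-0.767 to 5.97). The 20 T sites were 2.61% of all T sites, and 10.6% lay in shared sites. T replicates 1 and 2 each met 24 of the sites, and 30 met either. In 10 of the 20 sites the T midpoint lay inside the acetylated site, and in 56 of 87 shared sites (64.4%).

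Sites with T were mostly closed before Chiron, and many were open at 48h. Of the 20, 9 were open at 48h only, 1 at both times and 10 at neither time. The share open at 48h only was 45.0% (25.8 to 65.8), against 95 of 1386 sites without T (6.85%), a difference of 38.1 points (18.9 to 59.0). With the regions of T replicate 1 alone, 10 of 24 sites were open at 48h only, and with those of replicate 2 alone 8 of 24. Shared sites with T had 32 of 87 (36.8%), so the difference from them was not resolved (8.22, -13.6 to 31.0). Before Chiron the sites were open less often than shared sites with T, at 5.0% against 35.6% (difference -30.6, -41.9 to -9.84). In all 10 sites open at 48h the ATAC-seq region overlapped the T region itself.

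The 9 sites with T that were open at 48h only lay at a wide range of distances from E9.5 acetylation. Their distances to the nearest E9.5 region ran from 11877 to 1095798 bp with a median of 63217 bp. Of the 9, 6 lay at least 50 kb away, a limit chosen after the values were seen. The 10 closed sites with T had a median of 6845 bp (1681 to 91733 bp), and all 1406 sites 7398 bp. The farthest of the 9 was chr3:48209244-48210027 (784 bp), with a T site of 362 bp and an ATAC-seq region of 419 bp at 48h. It was named after its values were seen.

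Of the 20 sites with T, 5 carried CBP-P300 (25%, 11.2 to 46.9), against 11.7% of sites without T (10.1 to 13.5), and the intervals overlap. Among these, 2 were open at 48h only. At chr1:83985884-83987423 (1540 bp) a T site of 569 bp, a CBP-P300 region of 249 bp and an ATAC-seq region of 834 bp were listed, 81879 bp from the nearest E9.5 region. At chr5:149907428-149908012 (585 bp) the T site measured 221 bp, the CBP-P300 region 352 bp and the ATAC-seq region 575 bp, 16156 bp from an E9.5 region.

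No site held both Cdx2 and T, and 43 held either. With Cdx2 at 23 and T at 20 of the 1406 sites, hardly any overlap could arise, so the absence does not show that the factors avoid each other. How many of all narrow sites held both was not counted. On chromosome 13, the T site of chr13:115083806-115084944 (1139 bp, open at neither time) lay beside a wider acetylated site, chr13:115086237-115090171. That site was 3935 bp wide, above the width limit, met no E9.5 list and carried Cdx2, CBP-P300 and an ATAC-seq region at 48h only. Altogether 5 of the 1406 sites lie between positions 115081095 and 115134686 of this chromosome. This stretch was named after its values were seen. It was not free of E9.5 acetylation, since an E9.5 region lay between its last sites. The acetylated site with T and its wider neighbour with Cdx2 themselves met no E9.5 list. They brought Cdx2 and T within a few kilobases.

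**Figure D2:**
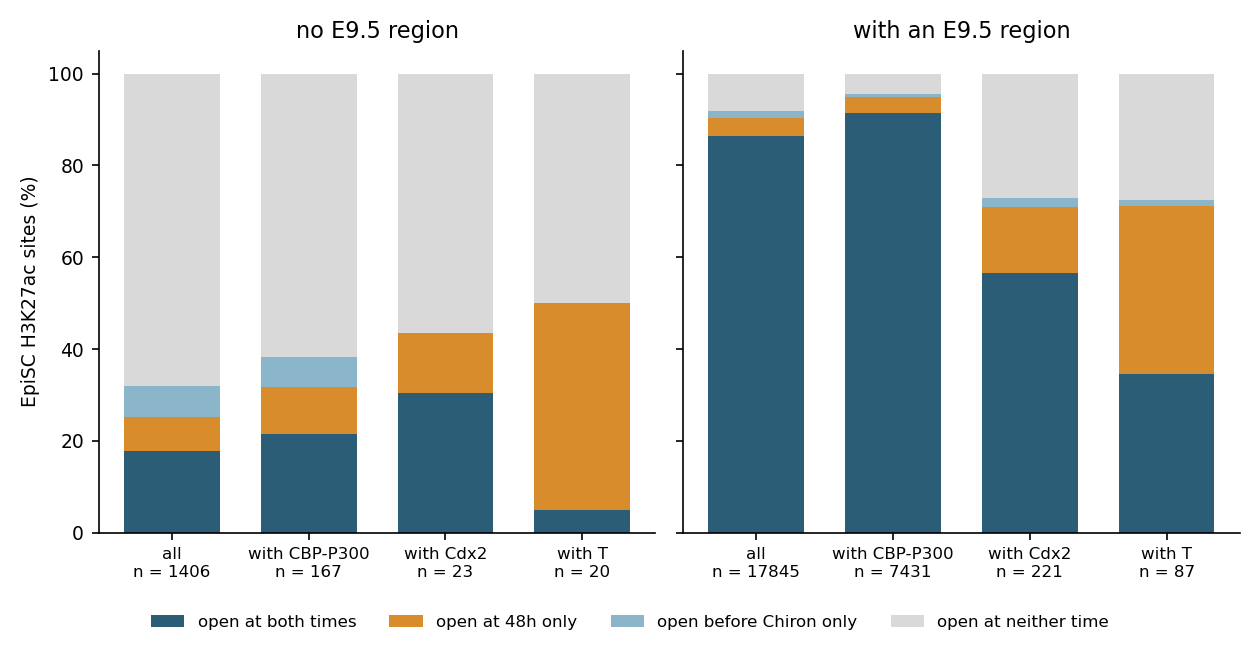
Share of EpiSC H3K27ac sites (percent, vertical axis) by openness in CdxKO EpiSCs, for all sites and for those with CBP-P300, Cdx2 or T, without (left) and with (right) an E9.5 region. Colours give the 4 openness classes and the number of sites stands under each bar. Grey, open at neither time, fills most of the left bars (68.1% of all 1406 sites), and orange, open at 48h only, is largest for T in both panels (45.0% of 20 sites and 36.8% of 87).

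Most of the sites carried none of the other signals. At 839 of the 1406 sites (59.7%, 57.1 to 62.2) neither ATAC-seq, CBP-P300, Cdx2 nor T was listed, against 10.0% of all narrow sites and 6.09% of shared ones. Of the 449 sites open at either time, 374 (83.3%, 79.6 to 86.5) carried no CBP-P300, Cdx2 or T, against 56.8% of all narrow open sites and 56.1% of shared open ones (difference 27.2, 23.4 to 30.5). The 8 lists of regions called in unprecipitated input DNA were short, with 429 to 742 regions each. Few overlaps were therefore possible for any set of sites, and the counts cannot tell whether a site is background. Any of the 8 input lists met 1 site (0.0711%), against 0.275% of all narrow sites and 52 shared sites (0.291%).

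The sites stood at the end of a graded series when EpiSC sites were ordered by how many E9.5 lists they met. From 0 to 4 lists, the share open before Chiron was 24.5%, 37.4%, 48.2%, 67.5% and 96.0%. At 48h it was 25.1%, 45.0%, 56.1%, 76.0% and 97.2%, and for CBP-P300 it was 11.9%, 21.4%, 27%, 29.8% and 45.2%. Median widths were 832, 805, 808, 820.5 and 1269 bp, so the first 4 steps were alike in width. Against the 789 sites in 1 list, the sites in none were open less often before Chiron (difference -12.9, -16.9 to -8.81) and at 48h (-19.9, -24.0 to -15.7), and had CBP-P300 less often (-9.54, -12.9 to -6.28).

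Cdx2 and T did not follow this order. Cdx2 met 1.64% of the sites in no list, 3.04% in 1 list, 4.50% in 2, 2.90% in 3 and 0.698% in all 4. T met 1.42%, 3.68%, 1.53%, 1.30% and 0.140%. Both factors were thus more frequent in no list than in all 4, with intervals that did not overlap, and less frequent in no list than in 1 list (Cdx2 difference -1.41, -2.95 to -0.129, and T difference -2.25, -3.88 to -0.910). The comparison with shared sites for T therefore rests on the many sites in all 4 lists, of which 20 of 14325 had T. The sites in 1 list were not an even mix of tissues. Of these 789, 538 met tailbud replicate 2 alone and 232 met anterior replicate 2 alone. Cdx2 and T were not counted by tissue.

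**Figure D3:**
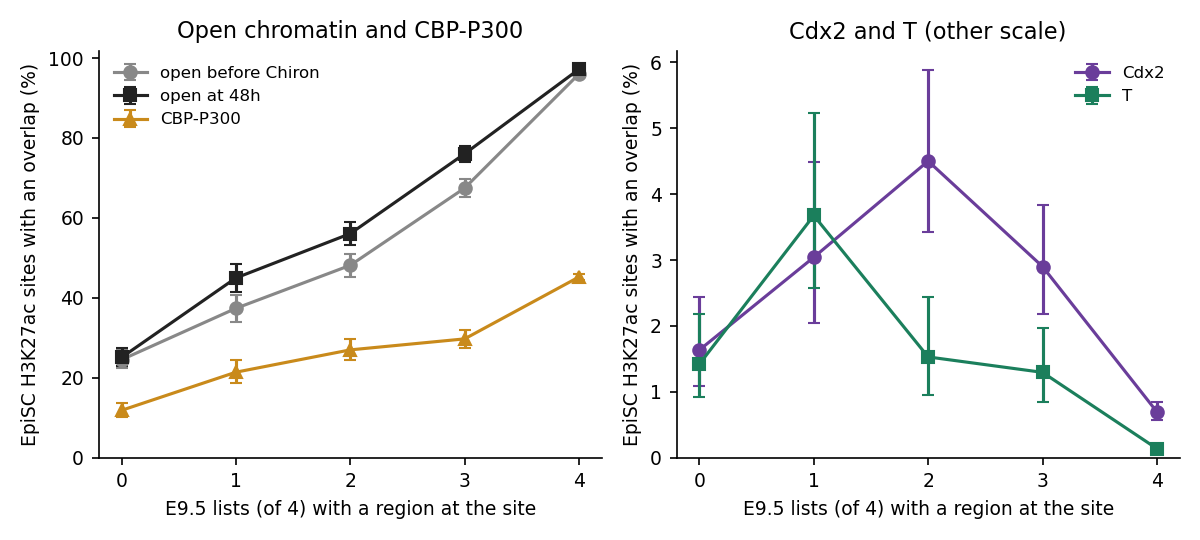
Share of narrow EpiSC H3K27ac sites (percent, vertical axis) with open chromatin or CBP-P300 (left) and with Cdx2 or T (right, on another scale), by the number of E9.5 lists that held a region at the site (horizontal axis, 0 to 4). Points at 0 are the 1406 sites without an E9.5 region, and error bars are 95% Wilson intervals. Openness climbs from 24.5% to 96.0% before Chiron, and T peaks at 1 list with 3.68%.

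The 4 E9.5 lists did not remove sites equally. Tailbud replicate 2 alone met 91.0% of the narrow sites and anterior replicate 2 met 87.6%, while the replicate 1 lists met 83.7% and 76.1%. Only 1 site was met by anterior replicate 1 alone and 18 by tailbud replicate 1 alone. With the replicate 2 lists alone, which lack the antibody batch that bound H3K9ac, 1426 sites met no E9.5 list. With the replicate 1 lists alone it was 2807.

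The sites lay at widely varying distances from E9.5 acetylation, and no other set of regions was measured beside them. Their distance to the nearest E9.5 region had a median of 7398 bp, quartiles of 2164 and 20831 bp and a maximum of 1351400 bp. Openness was similar up to 100 kb, at 25.2%, 25.5%, 22.3% and 20.1% before Chiron for sites below 1 kb, at 1 to 5, 5 to 20 and 20 to 100 kb. The 83 sites at 100 kb or more differed, with 39 (47.0%) open before Chiron and 39 at 48h. Against the nearer sites this was 23.9 points more before Chiron (13.2 to 34.7) and 23.3 points more at 48h (12.6 to 34.1). CBP-P300 met only 3 of the 83 (3.61%), 8.78 points fewer than nearer sites (difference -8.78, -11.8 to -2.09). The far sites were thus open most often of the 5 distance classes and had CBP-P300 least often. The 100 kb limit was set after the values were seen. Of the 83, 12 lay on chromosome 18, and 10 of these lay within 500 kb of each other, where all 10 were open before Chiron and 9 at 48h. Without chromosome 18, 28 of 71 far sites (39.4%) were open before Chiron and 29 (40.8%) at 48h, with differences from nearer sites of 16.3 (5.53 to 28.2) and 17.1 points (6.18 to 29.0). The CBP-P300 difference was then -8.03 points (-11.4 to -0.364).

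**Figure D4:**
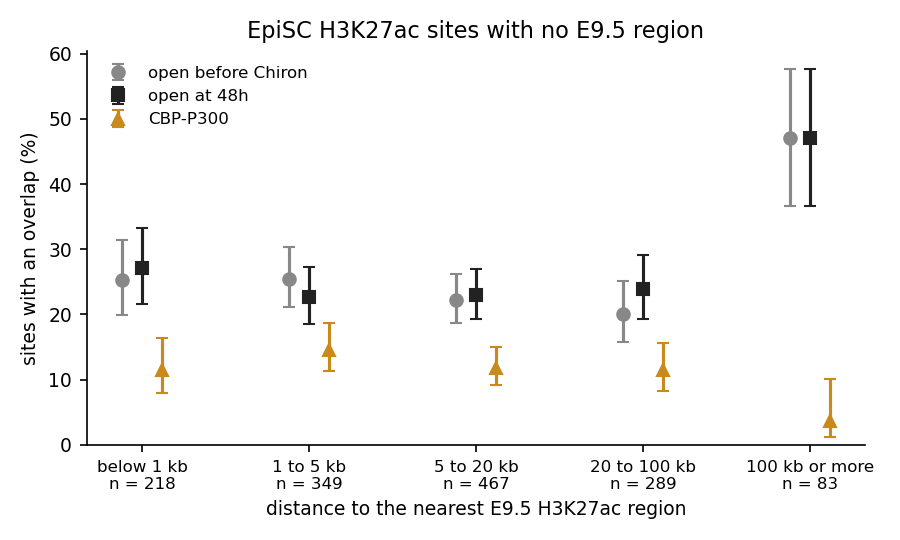
Share of the 1406 sites without an E9.5 region (percent, vertical axis) that were open before Chiron, open at 48h or carried CBP-P300, by distance to the nearest E9.5 H3K27ac region (horizontal axis, number of sites under each class). Error bars are 95% Wilson intervals. The 83 sites at 100 kb or more are open at 47.0% and carry CBP-P300 at 3.61%.

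The sites lay on chromosomes 1 to 19 and X, and some had others nearby. Spacing was not measured for shared or all narrow sites, so whether these sites lie closer together than other EpiSC sites was not tested. The nearest other site of the 1406 lay a median of 281796 bp away, and 496 sites (35.3%) had another within 100 kb. The fullest windows of 100 kb held 4 to 6 sites. The nearest EpiSC H3K27ac site of any kind lay a median of 12561 bp away, and 269 sites (19.1%) lay within 1 kb of one. Among narrow EpiSC sites, the share without an E9.5 region was lowest on the X chromosome, at 12 of 481 (2.49%, 1.43 to 4.31). On the autosomes it ran from 5.10% on chromosome 11 to 10.0% on chromosome 18.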

How the data were processed

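Region lists were used as the authors deposited them, 1 per sample; their values are other than counts or signal, namely the start and end of each region in mm9, with no score. Per the submitters' processing notes, the tools were Bowtie 1.1.0, Bowtie2 2.1.0, cutadapt 1.8.1, SAMtools 0.1.19 and MACS2 2.1.0; which peak caller settings were used is not given in the sources used here. H3K27ac, Cdx2 and T sites were built by keeping each replicate's regions that met the other replicate over 1 bp or more and fusing those that overlapped or touched. The same 1 bp overlap linked sites to other lists. Overlaps and intervals were computed with Python 3.11.15, pandas 2.3.3, NumPy 2.4.6 and statsmodels 0.14.6, and checked on simulated regions and against bedtools 2.31.1. The depth per sample is unknown, so precision is given only over sites.

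The members, their comparisons and the width classes were chosen with earlier results of these data known. Regions named by rule were sites with Cdx2 or T that carried CBP-P300 and were open at 48h only, the 5 widest with CBP-P300 that were open at both times without Cdx2 or T, and the 3 sites on each side of the width limit. Others are said to be chosen after their values were seen. Alternatives changed the E9.5 lists, the joining of replicates, the width limit and the overlap. The gene count tables, mapped to mm10, and the 4C samples were not analysed here. No mm9 genome or annotation was used, so genes beside the sites, their RNA, motifs and sequences are not given.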

Additional observations from a re-analysis of the deposited data

How the results depend on the processing

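Of the alternatives run, 78 results kept their call: shares stayed within the reported interval, the number of sites within 1.5 times, and differences kept their sign and whether their interval included 0, though not always their size. Another 21 shares or counts moved beyond these bounds, 4 differences reversed and 1 gained an interval away from 0. The number of sites was 1406, and became 2807 with the E9.5 replicate 1 lists only, 920 when EpiSC replicates had to overlap by 50% of each, and 4425 to 5995 without 1 EpiSC replicate. With the E9.5 replicate 1 lists only, the shares were 36.5% open before Chiron, 40.8% open at 48h and 17.6% with CBP-P300. Without 1 EpiSC replicate they ran from 10.2% to 19.6%, from 10.8% to 17.8% and from 4.17% to 8.18%, with Cdx2 from 0.601% to 0.746% and T from 0.701% to 1.02%. Without 1 Cdx2 replicate the share with Cdx2 ran from 1.64% to 2.28%, and without either T replicate in turn the share with T was 1.71%. With the midpoint of the other region inside the site, shares were 18.3% before Chiron, 17.5% at 48h, 0.711% with Cdx2 and 0.711% with T. Regions of either Cdx2 replicate gave 2.63%.

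Differences between sites without and with an E9.5 region were run for fewer alternatives than the shares. These were the width classes, the E9.5 replicate 2 lists, the midpoint inside the site and the sites in 1 E9.5 list. They were not run for the E9.5 replicate 1 lists only, other joining of EpiSC replicates, or other limits on width or E9.5 overlap. In each alternative run, the differences in openness and CBP-P300 kept their sign and an interval away from 0, but not their size. These differences ran from -74.7 to -12.9 points before Chiron, from -66.5 to -19.9 at 48h and from -48.4 to -9.54 for CBP-P300, each smallest against sites in 1 E9.5 list. The Cdx2 difference of 0.397 points became 0.0556 with the midpoint inside the site, -0.207 for sites of 1000 to under 2000 bp, 4.08 for 2000 to under 3000 bp and -1.41 against sites in 1 E9.5 list. The T difference of 0.935 became 0.397 with the midpoint inside the site, -0.449 for 2000 to under 3000 bp and -2.25 against sites in 1 E9.5 list. The cause of these changes was not tested. The comparison with sites in 1 list, 2 settings on the distance to E9.5 regions and the values without chromosome 18 were chosen after seeing the data. No paired analysis was possible because shares of sites come from no test over samples and the replicate numbers only name lists. The planned RNA comparison of genes beside the sites, its alternatives and the motif search were not run, for lack of an mm9 annotation and genome here. Region lists carry no depth, so a missing region cannot be told apart from a weak one.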
